A study of Mus musculus with 14 samples.

Results

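A set of 10 genes that respond to low oxygen or carry out glycolysis was followed across natural killer (NK) cells from 3 sources: the hypoxia targets Vegfa, Ankrd37, Bnip3 and Ndrg1, and the glycolytic enzymes Aldoa, Tpi1, Pgk1, Eno1, Pkm and Ldha. They were chosen by name, with earlier results of these data known. A table of 10210 genes measured in NK cells lists all 10. Their levels in a second table, of 12235 genes in tumour fibroblasts, are given beside them. Gapdh was not included, because its counts were high in a few libraries and near 0 in the rest. Mice were BALB/c, 8 weeks old, and tumours were raised in females by injecting 100000 4T1 cells labelled with green fluorescent protein (GFP) into a mammary fat pad. One group of NK libraries came from spleens of healthy mice (3 libraries), one from spleens of mice carrying such a tumour (4 libraries), and one from the tumours (4 libraries). 4T1, a carcinoma line from the mouse mammary gland, serves as a model of triple-negative breast tumours. The fibroblast libraries (3) are of sCAFs, the series' name for a subset of cancer-associated fibroblasts, sorted from 4T1-GFP tumours. The spleens serve as controls for the state of NK cells inside the tumour. NK cells were sorted for NKp46 and CD45 and against GFP, EPCAM, CD3, CD31 and CD14. The sCAFs were sorted only by what they lack: PDPN, CD31, CD45, GFP and EPCAM. The labels call the replicates independent but do not say that each came from its own mouse, so p-values measure the spread between these samples, which may be technical.

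Cells sense oxygen through hypoxia-inducible factors (HIF). While oxygen is plentiful, prolyl hydroxylases (the Egln proteins) mark the HIF alpha subunits, which the Vhl ubiquitin ligase then sends for destruction. When oxygen falls, an alpha subunit (Hif1a or Epas1) pairs with Arnt and binds short DNA elements near its targets, among them genes for blood vessel growth, for mitochondrial turnover and for most steps of glycolysis, the pathway that splits glucose into pyruvate and yields ATP without oxygen. NK cells also raise glycolysis when they are activated by cytokines, and cells deep in a solid tumour are often short of both oxygen and glucose.

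Sequences near the starts of the members are shown because they hold, or lack, the core letters that HIF is known to bind. Promoter windows (RefSeq, GRCm38.p6, 250 bases before to 50 after an annotated start) were found for 9 of the 10 members, in 16 windows, with none for Ndrg1. They were searched for ACGTG and GCGTG, which on the opposite strand read CACGT and CACGC, and overlapping matches were merged. At least 1 match stood in 12 of the 16 windows (75%), against 43.8% of all 32851 windows of the table. By gene it was 8 of the 9 (88.9%), against 46.7% of 27025 genes. Members had more windows per gene than the table as a whole, which can raise the share by gene. Overlapping windows of Aldoa and of Eno1 hold the same matches, and each window was counted. In the windows printed here, 5′ to 3′ on the strand of the gene, capitals mark the matches. They are those of Vegfa (chr17:46032328-46032627, minus strand, the first of its 2 windows), Ankrd37 (chr8:45999801-46000100, minus strand), Bnip3 (chr7:138909457-138909756, minus strand) and Ldha (chr7:46845554-46845853, plus strand, the first of its 2 windows).
Vegfa: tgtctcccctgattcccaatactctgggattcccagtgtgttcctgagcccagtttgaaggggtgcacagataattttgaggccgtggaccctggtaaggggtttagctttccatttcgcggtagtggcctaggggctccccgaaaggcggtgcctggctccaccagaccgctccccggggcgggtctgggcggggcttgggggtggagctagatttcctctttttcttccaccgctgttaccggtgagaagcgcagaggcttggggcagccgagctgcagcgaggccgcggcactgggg
Ankrd37: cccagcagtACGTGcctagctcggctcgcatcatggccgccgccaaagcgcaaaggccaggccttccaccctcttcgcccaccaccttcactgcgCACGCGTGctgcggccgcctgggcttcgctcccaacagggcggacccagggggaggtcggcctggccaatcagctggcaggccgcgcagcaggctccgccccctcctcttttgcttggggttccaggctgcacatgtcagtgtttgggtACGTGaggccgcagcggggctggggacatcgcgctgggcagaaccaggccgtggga
Bnip3: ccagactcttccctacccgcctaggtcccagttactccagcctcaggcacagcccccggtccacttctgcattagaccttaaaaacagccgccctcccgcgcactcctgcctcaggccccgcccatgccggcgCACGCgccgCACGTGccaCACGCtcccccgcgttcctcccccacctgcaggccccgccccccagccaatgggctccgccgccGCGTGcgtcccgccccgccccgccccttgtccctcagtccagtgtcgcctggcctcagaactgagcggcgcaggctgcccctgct
Ldha: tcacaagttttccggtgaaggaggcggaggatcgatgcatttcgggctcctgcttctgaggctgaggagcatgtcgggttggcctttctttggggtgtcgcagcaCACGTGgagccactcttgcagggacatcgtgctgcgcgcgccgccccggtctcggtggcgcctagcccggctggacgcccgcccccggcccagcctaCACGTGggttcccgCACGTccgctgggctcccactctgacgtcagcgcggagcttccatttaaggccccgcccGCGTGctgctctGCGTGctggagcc
The Ankrd37 window holds 3 separate runs of matches, that of Bnip3 4 and that of Ldha 5, and the Vegfa window holds none. The second Vegfa window, inside the gene at chr17:46025114-46025413, holds 2, and the only Tpi1 window holds none. A match is a description of the letters and not a measured binding site, and the absence of one says only that the letters are not in that window.

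Levels are given in CPM, the counts of a gene scaled to a common library size. The libraries count 3′ ends of transcripts and are not divided by gene length, so levels are compared between libraries of 1 gene and not between genes. The 11 NK libraries held between 559688 and 1966963 counts, and the sCAF libraries between 1318067 and 2230475. A count of 0 allows up to 3 counts, which on plain library totals is 1.53 to 5.36 CPM in the NK libraries. This limit covers counting error only. The NK levels given here use scaled library sizes, in which 3 counts were 4.62 CPM in healthy spleen replicate 1. In these bulk samples, fewer expressing cells and less RNA per cell cannot be told apart. The label of the NK libraries fitted their markers: all 10 genes of an NK list (Ncr1, Eomes, Prf1 and others) were listed. Their summed level, most of it Gzma, was 27640 to 28820 CPM in healthy spleens and 27230 to 30450 in tumour-bearing spleens. In tumours it was 19810 to 24780 CPM. Against tumour-bearing spleens, 5 of the 10 were called lower in tumour NK and 0 higher, beside 13.2% and 15.8% of all genes tested. Of 8 T cell markers 3 were listed (Cd3d, Cd3g and Cd4), although the sort was against CD3. Together they were at 43.15 to 79.23 CPM in healthy spleens, 99.35 to 149 in tumour-bearing spleens and 64.65 to 105.7 in tumours. Of 2 tested, 1 was called higher in tumour-bearing than in healthy spleens, beside 1.23% of all genes tested. The part of these T cell markers in the member levels was not tested. Tumours had been broken up with enzymes (collagenase A and DNase) in the warm and spleens by crushing. A lysis step of 5 minutes is given for the spleens and none for the tumours. The handling and the tissue therefore cannot be told apart. Among the spleen libraries, replicates 1 and 2 of the tumour-bearing mice and replicate 1 of the healthy mice were seen to stand apart from the other 4 in an earlier analysis of these counts, and the change of each member tested is also given against either pair of tumour-bearing spleens. Tumour replicate 3 stood apart in macrophage transcripts, as given below beside the members it touches.

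The comparison of tumour NK with NK cells from the spleens of tumour-bearing mice sets cells of the tumour against cells of another organ under the same disease. Of the 9 members that had enough counts to be tested, 6 were higher in tumour NK (Vegfa, Ankrd37, Ndrg1, Aldoa, Ldha and Pkm) and 0 lower, where 15.8% of all 8471 genes tested were higher and 13.2% lower (a quasi-likelihood test in edgeR, called at an adjusted p under 0.05 by the method of Benjamini and Hochberg over all genes tested; every adjusted p here is from this test unless another tool is named). At an unadjusted p under 0.05 there were also 0 lower, and DESeq2 and limma's voom likewise called 6 higher and 0 lower. The median log2 fold change was 1.95 over the 4 hypoxia targets, 0.46 over the 5 glycolytic enzymes tested and 0.0014 over all genes tested. For 6 of the 9 the 4 tumour libraries all lay above the 4 spleen libraries, which was so for 16.5% of all genes. The members were chosen with earlier results of these data known, so their excess over all genes is not independent support. The rise of Vegfa was by far the largest among the members, and the called enzymes rose between 1.38-fold and 1.89-fold.

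**Figure D1:**
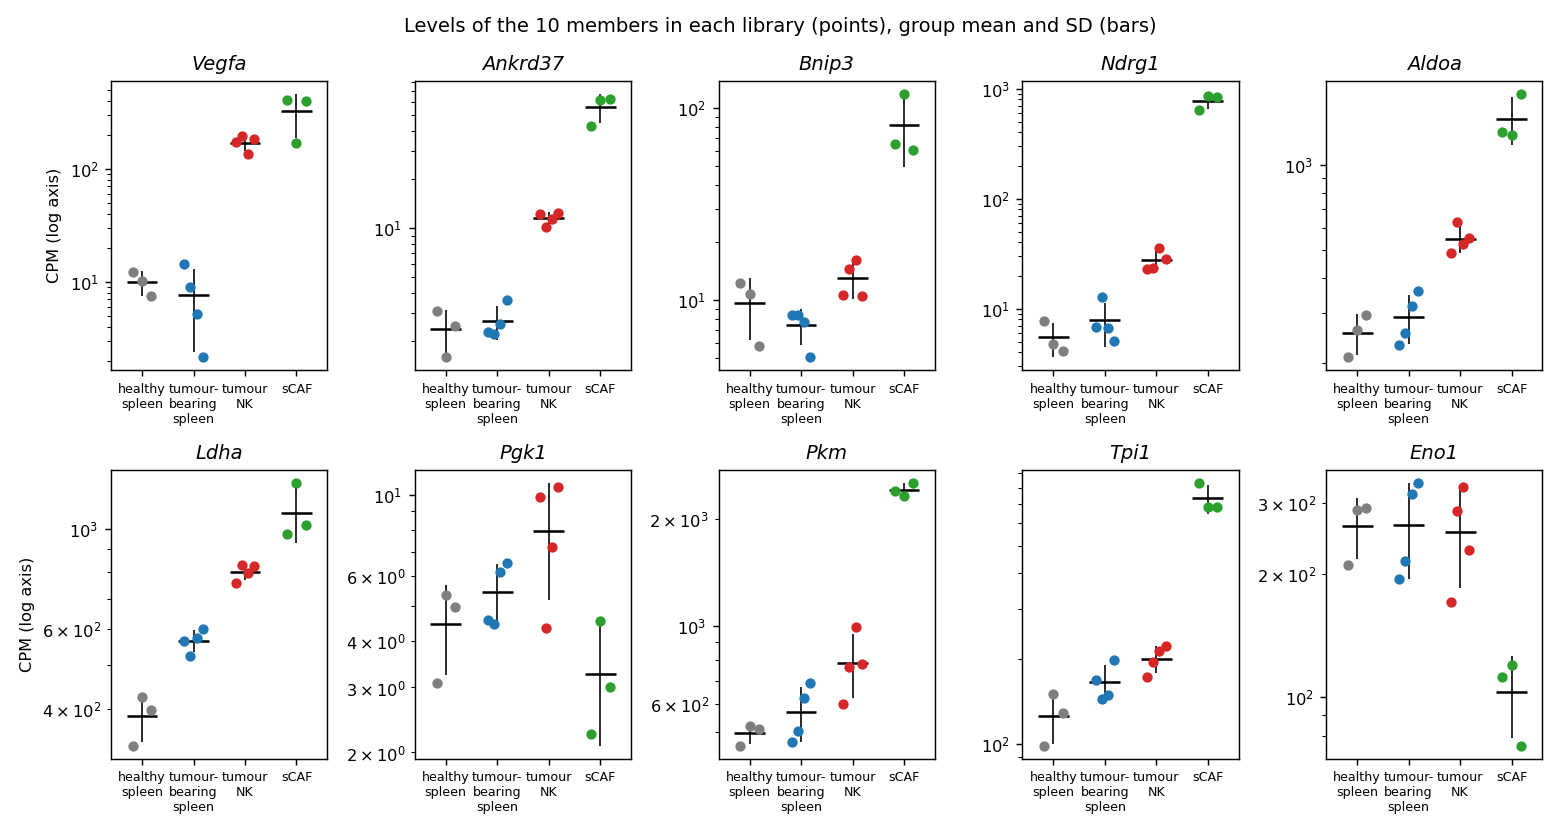
Level of each of the 10 genes in every library, in CPM on a log axis whose range differs between panels; points are libraries, the wide bar is the group mean and the thin bar the SD. Vegfa lies between 134.1 and 194.2 CPM in the 4 tumour NK libraries and at or below 14.5 CPM in all 7 spleen libraries, whereas Eno1 lies in the same range in the 3 NK groups.

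Vegfa encodes the secreted growth factor that drives the sprouting of blood vessels (chr17:46016993-46032369, GRCm38, minus strand). Its level was 12.3, 10.2 and 7.43 CPM in healthy spleen NK replicates 1 to 3, and 14.5, 8.93, 5.15 and 2.17 CPM in tumour-bearing spleen NK replicates 1 to 4. In tumour NK it was 173.0, 194.2, 134.1 and 182.5 CPM in replicates 1 to 4. All 4 tumour libraries were high and all 7 spleen libraries low, with no overlap. Tumour NK (170.9 ± 26.1 CPM, SD, n = 4) exceeded tumour-bearing spleen NK (7.68 ± 5.31, n = 4) by 4.48 on the log2 scale (SE 0.286, 22.3-fold, 95% interval 14.7 to 33.96, adjusted p 3.85e-09). Against spleen replicates 1 and 2 alone the log2 fold change was 3.88, and against replicates 3 and 4 alone 5.38.

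Because other cells of a tumour also make Vegfa, the levels of their markers are given here. Summed over the 8 listed genes of a macrophage and monocyte list, tumour replicate 3 had 422.7 CPM and the other tumour libraries 189.2 to 218.9. Fcgr3, at 125.1 to 234.3 CPM in the NK libraries, made up most of these sums outside replicate 3. Without Fcgr3 the sum was 239.3 CPM in tumour replicate 3 and 39.35 to 42.02 in the other tumour libraries. It was 16.77 to 28.31 CPM in tumour-bearing spleens and 9.246 to 24.08 in healthy spleens, below every tumour library. Replicate 3 was higher in Apoe (105.2 CPM, against 10.1 to 13.3 in the others), Lyz2 (40.3 against 4.10 to 7.25), C1qb (24.1 against 0 to 1.64), C1qa (23.4 against 0.951 to 4.92), C1qc (12.6 against 0 to 3.80) and Csf1r (7.21 against 0 to 1.45). Replicate 3 had the lowest Vegfa level of the 4, and without it the log2 fold change of Vegfa was 4.58. Neutrophil transcripts (5 of 9 markers listed, mainly S100a8 and S100a9) summed to 61.5 to 158 CPM in tumour NK. They summed to 1.45 to 13.4 in tumour-bearing spleens and 1.61 to 7.71 in healthy spleens, with Retnlg at 0 in all spleen libraries. The 158 CPM was in tumour replicate 2, which also had the highest Vegfa level of the 4 (194.2 CPM), and the other tumour libraries had 61.5 to 77.6. Over 18 alternative fits, among them 1 without tumour replicate 2, the log2 fold change of Vegfa was 3.88 to 5.38. Of 9 epithelial markers only Epcam and Cdh1 were listed, at 27.7 to 54.9 CPM together in tumour NK, 0 to 2.79 in tumour-bearing spleens and 0 to 3.08 in healthy spleens. Most of the tumour sum was Cdh1, at 26.46 to 47.55 CPM, with Epcam at 1.20 to 7.38. In sCAFs Cdh1 was at 8.52 to 40.21 CPM. The 4 fibroblast markers in both tables (Col1a2, Col3a1, Sparc and Fn1) summed to 13.0 to 35.3 CPM in tumour NK and to 3328 to 5549 CPM in sCAFs. Of 7 endothelial markers only Pecam1 was listed, the gene for CD31, which the sort selected against. It was at 139.1 to 201.6 CPM in tumour NK, 74.8 to 94.2 in tumour-bearing spleens and 41.6 to 80.9 in healthy spleens, and was called higher in tumour NK against both (log2 fold changes of 1.00 and 1.46). Of 7 dendritic cell markers 2 were listed. Zbtb46 was at 12.4 to 22.9 CPM in tumour NK, 3.62 to 5.34 in tumour-bearing spleens and 1.54 to 4.28 in healthy spleens, and Itgax, at 165.2 to 234.5 CPM in tumour NK, was called lower against tumour-bearing spleens. The part of these transcripts in the levels of Vegfa and the other members was not tested.

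Ankrd37 encodes a small ankyrin repeat protein whose gene is a direct HIF target (chr8:45996902-46005707, minus strand). It was detected with 2 or 3 counts in each healthy spleen library and 3 to 5 in each tumour-bearing spleen library, near the 3-count limit, and with 7 to 19 counts in each tumour library. Its level was 3.08, 1.61 and 2.48 CPM in healthy spleens, 2.29, 2.23, 2.57 and 3.62 in tumour-bearing spleens and 12.3, 10.1, 11.4 and 12.4 in tumours. The tumour libraries stood above all spleen libraries and close to each other. The log2 fold change against tumour-bearing spleens was 2.10 (SE 0.362, 95% interval 1.34 to 2.85, adjusted p 0.00019), and the low spleen counts make its size imprecise. It was 2.32 against spleen replicates 1 and 2 alone and 1.88 against replicates 3 and 4 alone.

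Ndrg1 encodes a cytoplasmic protein induced by hypoxia and by differentiation (chr15:66929318-66969640, minus strand). Its level was 7.71, 4.82 and 4.13 CPM in healthy spleens, 6.86, 12.8, 6.69 and 5.06 in tumour-bearing spleens and 23.0, 23.2, 35.5 and 28.5 in tumours. No tumour library overlapped a spleen library, and tumour replicate 3, the one with the most macrophage transcripts, was the highest. Its level rose by 1.80 on the log2 scale (SE 0.290, 95% interval 1.19 to 2.401, adjusted p 9.49e-05), or by 1.62 without tumour replicate 3. It was 1.46 against spleen replicates 1 and 2 alone, of which replicate 2 had the highest spleen level, and 2.18 against replicates 3 and 4 alone.

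Bnip3 encodes a mitochondrial outer membrane protein that marks mitochondria for removal by autophagy (chr7:138890836-138909519, minus strand). Its level was 12.3, 10.7 and 5.78 CPM in healthy spleens, 8.38, 8.37, 7.72 and 5.06 in tumour-bearing spleens and 10.7, 14.5, 16.2 and 10.5 in tumours. The tumour libraries lay above the 4 tumour-bearing spleens by a narrow margin and overlapped the healthy spleens. The log2 fold change against tumour-bearing spleens was 0.80 (SE 0.311, 95% interval 0.15 to 1.45), with an adjusted p of 0.0593, which missed the threshold. It was 0.63 against spleen replicates 1 and 2 alone and 0.95 against replicates 3 and 4 alone, neither of them called.

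**Figure D2:**
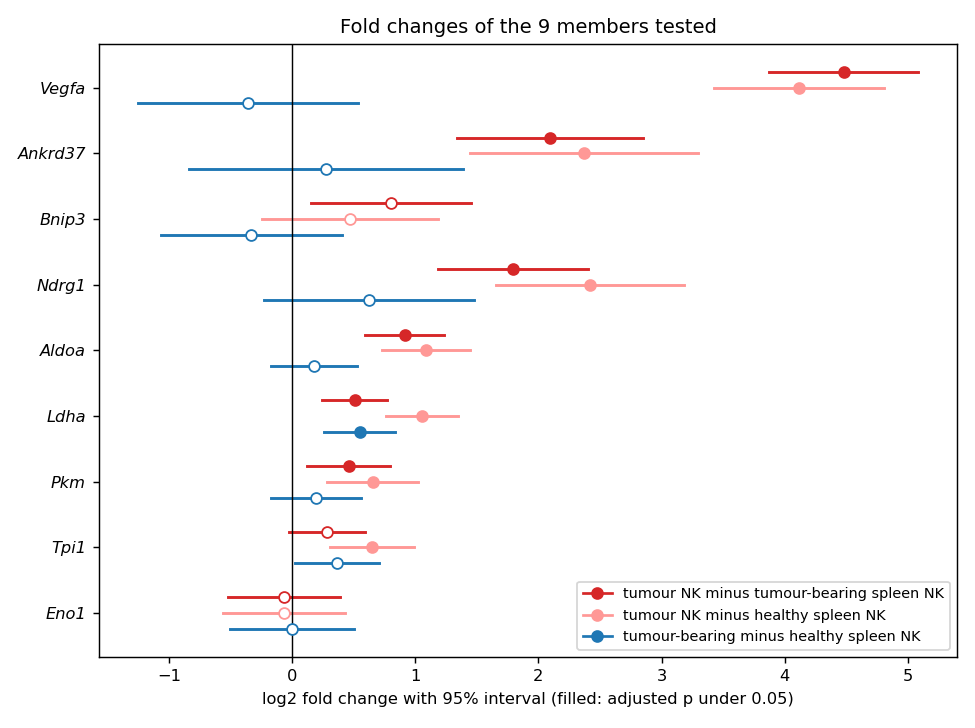
Log2 fold change of the 9 members tested (points) with 95% interval (lines) in the 3 comparisons of NK groups; filled points had an adjusted p under 0.05. The comparisons with tumour NK share the same 4 tumour libraries. Vegfa stands at 4.48 and 4.12 against the 2 spleen groups, the called enzymes lie between 0.46 and 1.09 in these comparisons, and only Ldha is filled between the spleens.

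The glycolytic enzymes are taken in the order of the pathway. Aldolase A, from Aldoa (chr7:126795234-126800751, minus strand), splits fructose bisphosphate into triose phosphates. Its level was 211.1, 263.2 and 295.5 CPM in healthy spleens, 232.5, 256.8, 317.6 and 358.7 in tumour-bearing spleens and 491.0, 631.8, 526.7 and 552.4 in tumours. Each tumour library exceeded each spleen library. The rise against tumour-bearing spleens was 0.92 on the log2 scale (SE 0.153, 1.89-fold, adjusted p 0.000141). It was 1.16 against spleen replicates 1 and 2 alone and 0.67 against replicates 3 and 4 alone.

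Triose phosphate isomerase, from Tpi1 (chr6:124810586-124814296, minus strand), interconverts the triose phosphates. Its level was 98.6, 149.3 and 128.8 CPM in healthy spleens, 168.5, 143.4, 148.8 and 198.2 in tumour-bearing spleens and 172.2, 194.2, 212.2 and 220.6 in tumours. The tumour libraries overlapped tumour-bearing spleen replicate 4. The log2 fold change was 0.28 (95% interval −0.02 to 0.59, adjusted p 0.16) and was not called, nor was it against spleen replicates 1 and 2 alone (0.36) or replicates 3 and 4 alone (0.17).

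Phosphoglycerate kinase, from Pgk1 (chrX:106187100-106203699, plus strand), makes the first ATP of the pathway. Its level was 3.08, 5.35 and 4.95 CPM in healthy spleens, 4.57, 4.47, 6.18 and 6.51 in tumour-bearing spleens and 9.84, 4.35, 7.22 and 10.5 in tumours. These values rest on 2 to 12 counts per library, the groups overlapped, and the gene did not pass the filter on low counts. In a fit of all 10210 genes without that filter, its log2 fold change was 0.55 (95% interval −0.19 to 1.29, adjusted p 0.273). A difference was not detected from so few counts. Aldoa had 137 to 876 counts in the same libraries, and the reason for the low Pgk1 counts was not tested.

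Enolase 1, from Eno1 (chr4:150236721-150248879, plus strand), makes phosphoenolpyruvate. Its level was 211.1, 287.9 and 292.2 CPM in healthy spleens, 194.4, 215.5, 316.0 and 335.6 in tumour-bearing spleens and 171.3, 286.9, 328.9 and 229.1 in tumours. The 3 groups covered the same range. The log2 fold change was −0.06 (95% interval −0.52 to 0.39, adjusted p 0.856). It was 0.31 against spleen replicates 1 and 2 alone and −0.39 against replicates 3 and 4 alone, neither of them called, so no direction is given for Eno1.

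Pyruvate kinase M, from Pkm (chr9:59656368-59679375, plus strand), makes pyruvate and ATP. Its level was 459.2, 522.2 and 512.5 CPM in healthy spleens, 468.8, 505.1, 623.3 and 687.1 in tumour-bearing spleens and 601.7, 763.7, 993.9 and 780.6 in tumours. Tumour replicate 1 lay inside the range of the tumour-bearing spleens and tumour replicate 3 was the highest. The log2 fold change was 0.46 (SE 0.161, adjusted p 0.0375). This call rested on single libraries: the adjusted p was 0.161 without tumour replicate 3, with a log2 fold change of 0.31, and 0.131 without tumour-bearing spleen replicate 1, with 0.35. Against spleen replicates 3 and 4 alone the log2 fold change was 0.23 (adjusted p 0.351), and against replicates 1 and 2 alone 0.69 (adjusted p 0.0155).

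Lactate dehydrogenase A, from Ldha (chr7:46841475-46855627, plus strand), turns pyruvate into lactate and so frees the cofactor that glycolysis needs. Its level was 331.3, 423.2 and 397.8 CPM in healthy spleens, 564.8, 522.4, 571.8 and 601.0 in tumour-bearing spleens and 756.6, 831.8, 797.9 and 827.2 in tumours. The 3 groups formed separate steps with no overlap, lowest in healthy spleens and highest in tumours. The rise from tumour-bearing spleens to tumours was 0.51 on the log2 scale (95% interval 0.25 to 0.77, 1.42-fold, adjusted p 0.0046). It was 0.56 against spleen replicates 1 and 2 alone and 0.42 against replicates 3 and 4 alone, and called in both.

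Against healthy spleens, which asks the same of NK cells from mice with no tumour and uses the same 4 tumour libraries, 7 of the 9 members were higher and 0 lower, beside 16.5% and 14% of all genes tested. There were 0 lower at an unadjusted p under 0.05, and DESeq2 and limma's voom each called 7 higher and 0 lower. In 7 of the 9 the groups did not overlap and the tumour was higher, as in 18.5% of all genes. The median log2 fold change was 2.395 over the hypoxia targets, 0.66 over the tested enzymes and 0.016 over all genes. Here too, the members having been chosen with earlier results known, the excess over all genes is not independent support. Vegfa was higher by 4.12 (SE 0.326, adjusted p 6.17e-08), Ndrg1 by 2.42 (adjusted p 4.37e-05) and Ankrd37 by 2.37 (adjusted p 0.000404). Aldoa rose by 1.09 (2.13-fold, adjusted p 6.32e-05 in the same test) and Ldha by 1.06 (2.08-fold, adjusted p 9.20e-06). Pkm rose by 0.66 (adjusted p 0.00816) and Tpi1 by 0.65 (adjusted p 0.00524). Bnip3, at 0.47 (95% interval −0.24 to 1.19, adjusted p 0.319), and Eno1, at −0.06 (95% interval −0.56 to 0.43, adjusted p 0.861), were not called, and the sign for Eno1 was positive in 3 of 15 alternatives.

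Between the spleens of tumour-bearing and healthy mice, 1 of the 9 members was called, Ldha, which was higher in tumour-bearing mice. Of all genes, 1.23% were higher and 0.354% lower in this comparison. Ldha rose from 384.1 ± 47.5 CPM (SD, n = 3) to 565.0 ± 32.4 CPM (n = 4), a log2 fold change of 0.55 (SE 0.138, 95% interval 0.26 to 0.84, adjusted p 0.048). Its groups did not overlap, as in 6.52% of all genes. Without any 1 of the 7 spleen libraries the log2 fold change lay between 0.47 and 0.63 and the adjusted p between 0.0649 and 0.126, so each of the 7 was needed for the call. Tpi1 had a log2 fold change of 0.37 (95% interval 0.03 to 0.70, adjusted p 0.395 in the same test) and Ndrg1 one of 0.62 (adjusted p 0.636). Vegfa did not pass the test, at −0.36 (95% interval −1.25 to 0.53, adjusted p 0.839), and Eno1 was at 0.00 (95% interval −0.505 to 0.505). Of the 9, 0 were called lower, also at an unadjusted p under 0.05 and by DESeq2 and limma's voom.

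The genes around the members were read from lists of the same pathways, also chosen with earlier results of these data known. Of 14 listed genes of HIF subunits and oxygen sensing, 10 were tested. In tumour NK 3 of these were higher than in tumour-bearing spleen NK and 0 lower, beside 15.8% and 13.2% of all genes tested. The median log2 fold change of the 10 was 0.17. Of the 10, 0 were lower at an unadjusted p under 0.05 or by DESeq2 or limma's voom. Both alpha subunits were among the 3. Hif1a was at 59.0, 53.6, 46.9 and 40.9 CPM in tumours, at 14.9 to 26.7 in tumour-bearing spleens, and at 40.1, 14.5 and 12.4 in healthy spleens. Tumour and spleen libraries did not overlap, although healthy replicate 1 came close. The rise of Hif1a was 1.30 (adjusted p 0.00136). Epas1, which encodes HIF-2 alpha, was at 47.6, 50.7, 32.5 and 39.9 CPM in tumours, 12.2, 12.3, 2.06 and 7.23 in tumour-bearing spleens and 6.60 to 12.3 in healthy spleens. All tumour libraries lay far above the spleens, and the log2 fold change was 2.34 (adjusted p 3.75e-05 in the same test). The ligase gene Vhl rose by 0.90 (adjusted p 0.00548), from 20.1 to 37.7 CPM. The partner subunit Arnt (0.04, adjusted p 0.936), the hydroxylase gene Egln1 (0.30, adjusted p 0.165) and the asparagine hydroxylase gene Hif1an (0.02, adjusted p 0.963) were not called. Against healthy spleens Hif1a, Epas1 and Vhl were again called higher (1.34, 2.18 and 0.97), and Rbx1, a ring protein of the ligase, was lower by −0.82 (adjusted p 0.00757). Of all genes tested, 16.5% were higher and 14% lower against healthy spleens.

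Of 36 further hypoxia targets 23 were tested, of which 9 were higher and 1 lower in tumour NK than in tumour-bearing spleens, with a median log2 fold change of 0.32, and 11 higher and 2 lower than in healthy spleens (10 and 12 higher by DESeq2 and limma's voom), with a median of 1.02. Over all genes tested, 15.8% were higher and 13.2% lower against tumour-bearing spleens and 16.5% and 14% against healthy spleens. The lists share genes: Slc2a1 is counted here and again among the transport genes, and Pfkfb3 here and again among the glycolytic enzymes. Hilpda, which encodes a lipid droplet protein that blocks fat breakdown in hypoxia, had the largest rise. Its level was 442.7, 346.3, 334.3 and 456.4 CPM in tumours, 27.4, 32.4, 26.2 and 18.8 in tumour-bearing spleens and 38.5, 21.4 and 21.5 in healthy spleens. As with Vegfa, tumour and spleen libraries were far apart, and Hilpda rose by 3.90 on the log2 scale (SE 0.191, 14.9-fold, adjusted p 2.08e-11). Rora, a nuclear receptor gene, rose by 2.69 (adjusted p 3.44e-07), Bhlhe40, a transcriptional repressor gene, by 2.47 (adjusted p 2.20e-09) and Wsb1, a ubiquitin ligase adaptor gene, by 1.89 (adjusted p 4.13e-08). Tfrc, the transferrin receptor gene, rose by 1.86 (adjusted p 3.06e-06), and Ccng2, a cyclin gene, by 1.59 (adjusted p 9.86e-06). Ankzf1 was the lower one, by −0.75 (adjusted p 0.0193), and is named after its value was seen. The remaining 13 of the 23 were not called against tumour-bearing spleens, with log2 fold changes from −0.47 (Plod1) to 0.78 (Ero1l). Between these lay Bnip3l, Cited2, Fam162a, Higd1a, Insig2, Kdm3a, Kdm4b, Mxi1, P4ha1, Pfkfb3 and Plod2. Stc2, a stanniocalcin gene, rose by 1.96 against healthy spleens, where its mean was only 3.10 CPM. Cited2, a feedback inhibitor of HIF, was lower in tumours than in healthy spleens by −1.45 (adjusted p 7.50e-07) and lower in tumour-bearing than in healthy spleens by −1.09 (96.8 against 206.7 CPM, adjusted p 0.000366), the 1 gene of these lists besides the members that was called between the spleens.

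**Figure D3:**
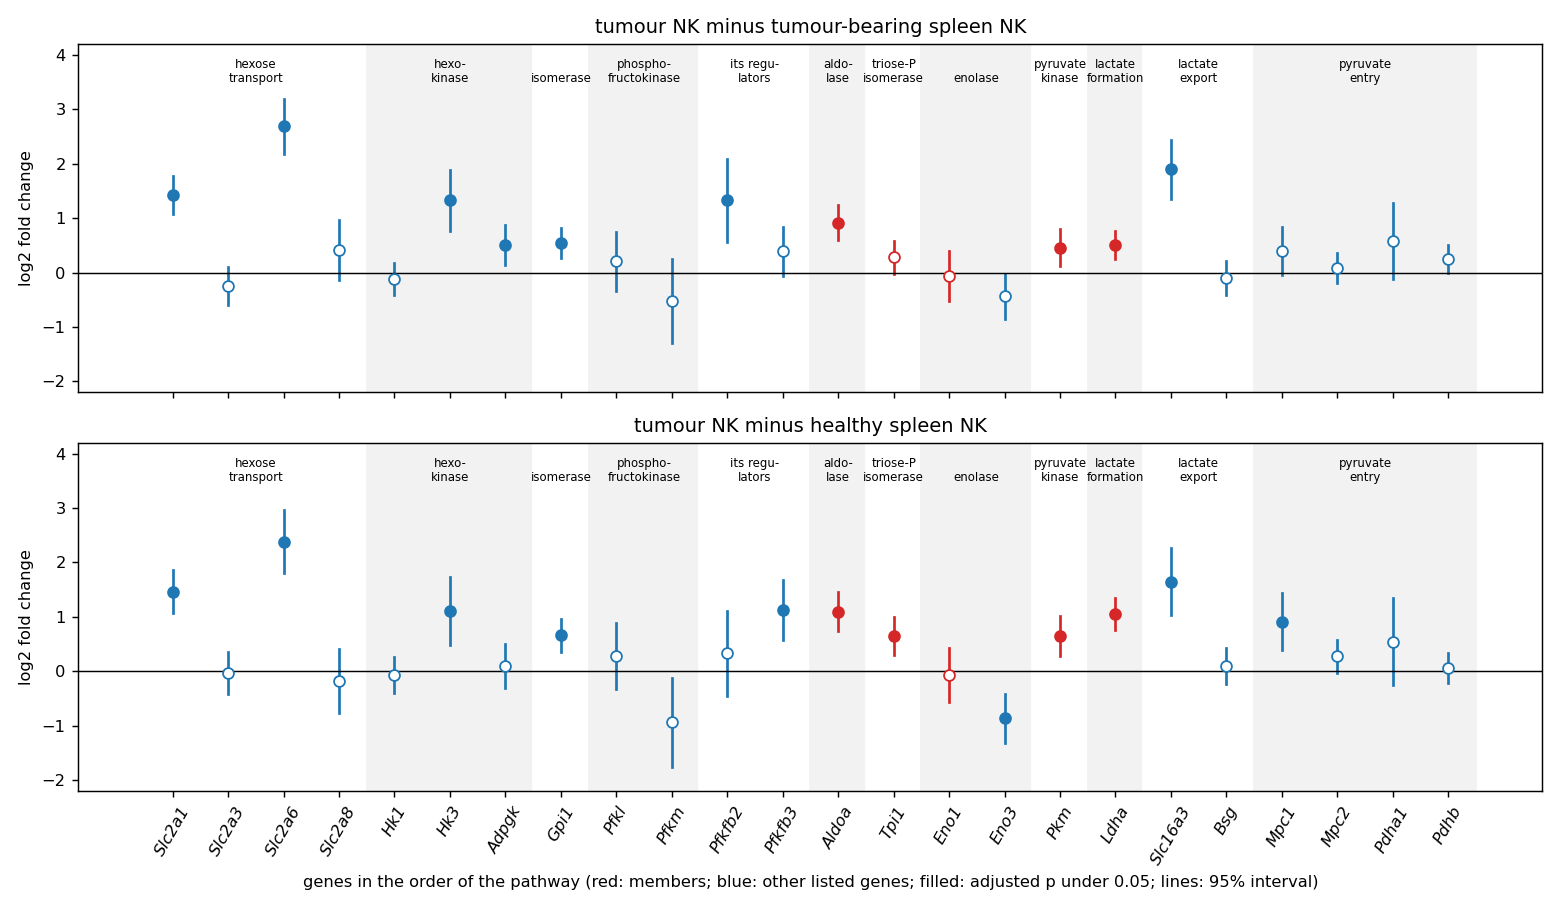
Log2 fold change (points) with 95% interval (lines) of hexose transporters, glycolytic enzymes, lactate export and pyruvate entry, in pathway order, for tumour NK against each spleen group; members are red, other genes of the lists blue, and filled points had an adjusted p under 0.05. Slc2a6, at 2.69, Slc16a3, at 1.90, and Slc2a1, at 1.43, hold the highest points against tumour-bearing spleens, and the enzymes between them are lower or near 0.

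Genes for the transport of hexoses and of lactate were also among those that rose. Of 8 transport genes 6 were tested, and 3 were higher and 0 lower against either spleen group, with 0 lower at an unadjusted p under 0.05 and by DESeq2 or limma's voom. Of all genes tested, 15.8% were higher and 13.2% lower against tumour-bearing spleens, and 16.5% and 14% against healthy spleens. Slc2a1, which encodes the glucose transporter GLUT1, was at 154.1, 189.8, 145.5 and 129.3 CPM in tumours, 59.5, 56.4, 55.1 and 57.9 in tumour-bearing spleens and 78.6, 51.4 and 42.9 in healthy spleens. The tumour libraries were all above the spleens, and the log2 fold change against tumour-bearing spleens was 1.43 (SE 0.165, adjusted p 1.88e-06). Slc2a6, which encodes a lysosomal hexose transporter, rose by 2.69 (adjusted p 6.91e-08) from 8.56 to 54.4 CPM. Slc16a3, which encodes the lactate exporter MCT4, rose by 1.90 (adjusted p 1.53e-05) from 7.79 to 29.6 CPM. Slc2a3, which encodes the glucose transporter GLUT3, was not called at −0.25 (adjusted p 0.275).

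Of 26 further glycolytic enzyme genes 13 were tested, of which 4 were higher and 0 lower against tumour-bearing spleens (1 lower at an unadjusted p under 0.05; 3 higher and 0 lower by DESeq2, 4 and 0 by limma's voom), with a median of 0.21. The 4 were Hk3, a hexokinase gene (1.33, adjusted p 0.00083), Pfkfb2, for a regulator of phosphofructokinase (1.33, adjusted p 0.00966), Gpi1, for glucose phosphate isomerase (0.55, adjusted p 0.00348), and Adpgk, for an ADP-dependent glucokinase (0.51, adjusted p 0.0344), which DESeq2 did not call (adjusted p 0.0862). Hk1 was not called at −0.12 (adjusted p 0.552). Against healthy spleens 3 were higher (Hk3, Gpi1 and Pfkfb3) and Eno3, an enolase gene, was lower by −0.86 (adjusted p 0.00493). Hk2, the hexokinase gene classed as a HIF target, had too few counts to be tested: it was at 13.9, 18.8, 6.61 and 5.70 CPM in tumours, 2.29, 1.12, 0 and 0.723 in tumour-bearing spleens and 0, 1.07 and 0 in healthy spleens. Pgam1 was listed but not tested either, and Pfkp and Pdk1 were not analysed here. Of 13 genes for pyruvate entry into mitochondria 9 were tested and 0 were called in either direction against tumour-bearing spleens, with 0 at an unadjusted p under 0.05 and by DESeq2 or limma's voom. Against healthy spleens 1 was called, Mpc1, for a subunit of the pyruvate carrier (0.91, adjusted p 0.00936 in the same test). Beside the counts of the further enzymes and of pyruvate entry, 15.8% of all genes tested were higher and 13.2% lower against tumour-bearing spleens. Against healthy spleens the shares were 16.5% and 14%.

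**Figure D4:**
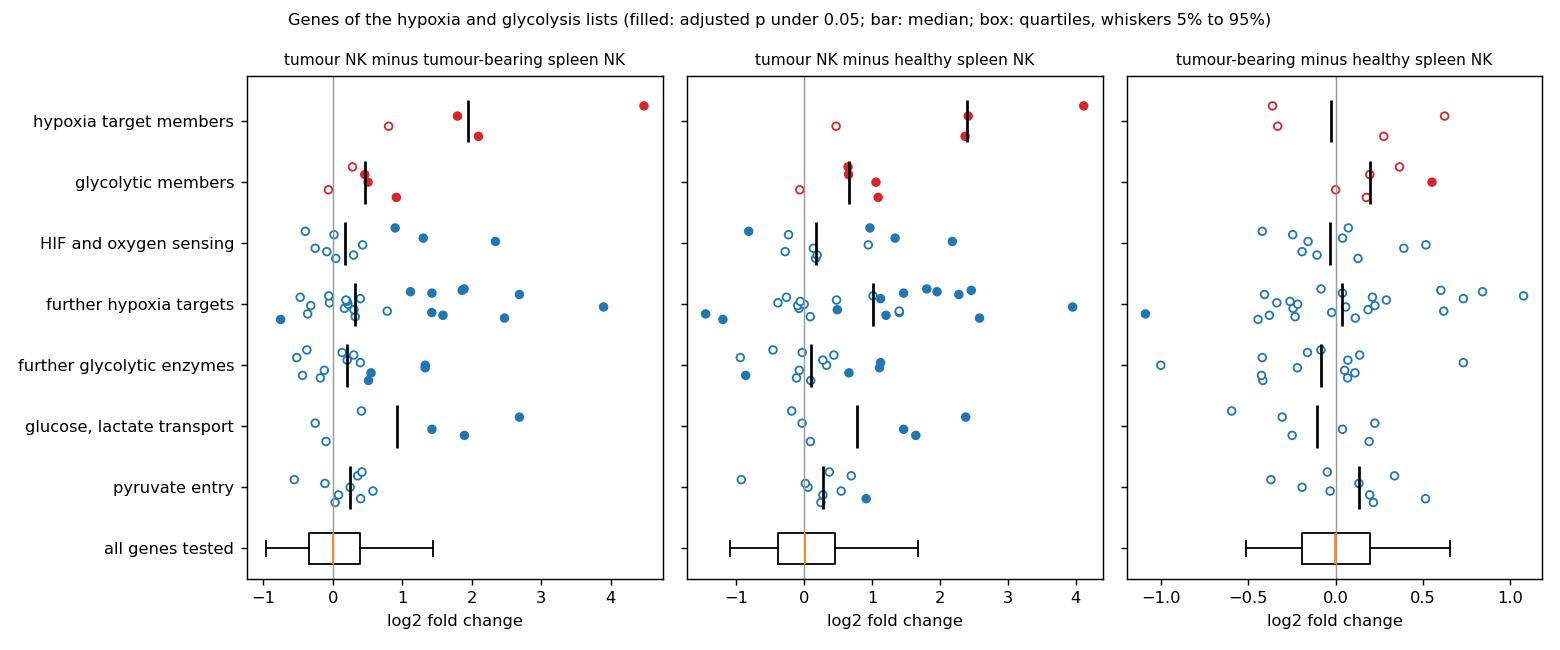
Log2 fold changes of single genes (points) in each list, with the list median (bar), beside the distribution over all 8471 genes tested (box: quartiles; whiskers: 5% to 95%); filled points had an adjusted p under 0.05 and red marks the members. The hypoxia target members have the highest medians against both spleen groups (1.95 and 2.395), and the lists spread around 0 between the spleens.

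Over the 11 NK libraries, the genes whose log2 CPM followed Vegfa most closely were Zc3hav1 (Pearson r 0.997), Ifrd1 (0.993), Pnrc1 (0.991), Slc25a3 (0.991) and Sqstm1 (0.989). Among the members, Ndrg1 (0.912) and Ankrd37 (0.912) followed it closest and Eno1 (−0.276) least. Ndrg1 and Ankrd37 ranked only 395 and 398 among all genes compared with Vegfa. For the mean of the 5 tested glycolytic enzymes, the nearest genes were Myo1e (0.962), Milr1 (0.961), Opa3 (0.957), Hip1r (0.953) and Atp5d (0.952). The value for Vegfa was 0.63, at rank 1140. These values describe 11 libraries that fall into a tumour and a spleen cluster and are not tests.

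In sCAFs, which were counted in a table of their own and have no comparison group, levels are set beside tumour NK as a description. Vegfa was at 407.5, 168.4 and 395.7 CPM in sCAF replicates 1 to 3, a range that overlaps tumour NK. Ndrg1 was at 641.6, 852.0 and 832.7 CPM, and the mean was 28.2 times that of tumour NK with no overlap. Bnip3, at 65.5, 118.4 and 60.8 CPM, and Ankrd37, at 42.6, 61.5 and 63.1 CPM, were also above every tumour NK library. Among the enzymes, Pkm (2391, 2325 and 2526 CPM), Aldoa (1307, 1275 and 1776 CPM), Tpi1 (833.5, 686.6 and 684.8 CPM) and Ldha (974.7, 1262 and 1017 CPM) were above every tumour NK library, by factors of the means of 3.07, 2.64, 3.68 and 1.35. Eno1 went the other way, at 112.1, 119.9 and 75.8 CPM, below every NK library, and Pgk1 was at 2.24, 4.55 and 3.00 CPM, from 4 to 6 counts. Around the members, Slc2a1 was at 331.3 to 542.5 CPM, Egln3, a hydroxylase gene induced by HIF, at 197.7 to 367.9 against 4.92 to 13.0 in tumour NK, and Hk2 at 66.8 to 134.4. Hilpda, at 47.5 to 123.1 CPM, and Hif1a, at 18.2 to 34.5 CPM, were below every tumour NK library. All 9 fibroblast markers searched were listed in sCAFs, with Fn1 at 2371 to 3491 CPM but Lum at only 0.759 to 1.502. Epithelial markers were also high there, with Krt18 at 2250 to 2993 CPM and the 9 markers together at 3280 to 4148. Macrophage and monocyte markers without Fcgr3 summed to 150.2 to 199.7 CPM in sCAFs, beside 239.3 in tumour NK replicate 3. Most of the sCAF sum was Apoe, at 82.05 to 113.4 CPM. The part of the epithelial and macrophage transcripts in these levels was not tested.

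Some members share transcript sequence with neighbours. Exons of a gene on the opposite strand overlap the last 300 bases of Ankrd37, Bnip3, Ndrg1 and Tpi1 (GENCODE M21), and whether counting used strand is not given in the sources used here, so reads of the pairs cannot be told apart. Among other annotated transcripts, the 3′ end of Bnip3 has 2 near-identical copies and that of Eno1 has 1 (at least 95% identity over at least 100 bases), so their counts are uncertain. This search used the last 300 bases of the longest coding transcript of each gene. Sequence outside annotated transcripts was not searched. The other 5 members (Vegfa, Aldoa, Ldha, Pkm and Pgk1) had 0 copies in this search and no overlap on the opposite strand at the end, and Pkm overlaps another gene on its own strand.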

How the data were processed

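The authors deposited raw read counts with a symbol for each gene, NK and sCAF libraries in separate tables. Per the submitters' processing notes, reads were handled with bcl2fastq, STAR 2.4.2a and HTSeq on mm10; the annotation, the use of strand and of molecular identifiers are not given in the sources used here. Each header has spaces where a tab should part 2 names, and those columns were taken by position. In the NK table each listed gene reaches at least 6 counts in some library, so totals are sums over listed genes.

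Counts were compared in edgeR 4.0.16 (R 4.3.3): filterByExpr kept 8471 genes, TMM scaled the libraries, and 1 robust quasi-likelihood fit of all 11 NK libraries gave 3 contrasts, adjusted by Benjamini-Hochberg over all genes tested. CPM use TMM effective sizes for NK and plain totals for sCAF libraries. Standard errors come from the F statistic. The script was tested on simulated data. Alternatives were DESeq2 1.42.0, limma 3.58.1 (voom), other scalings, no filter, fits of fewer libraries and blocks. Gene models are GENCODE M21 (GRCm38). The members and lists were chosen with earlier results of these data known. For each list other than the members and oxygen sensing genes, only called genes averaging at least 3 counts in the lower group were eligible. Up to 6 of these with the largest absolute change are named, along with Slc2a1, Hk2, Gpi1, Pfkp, Pgam1, Slc16a3 and Pdk1. Slc2a3, Hk1 and Ankzf1 fall outside this rule and were chosen after their values were seen. The 13 further hypoxia targets not called against tumour-bearing spleens also fall outside it, and all of them are named. Whether shared replicate numbers pair the libraries is not stated in the labels, and the main fit did not use them as pairs.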

Additional observations from a re-analysis of the deposited data

How the results depend on the processing

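Over 438 alternative fits of single members, 414 kept direction (or stayed uncalled) and call, 22 lost the call, 2 gained it and 0 called values changed sign. Of the 9 members, 5 to 7 were higher in tumour NK than in tumour-bearing spleen NK in each alternative run, and 6 or 7 higher than in healthy spleen NK; 0 were lower in any. Vegfa, Ankrd37, Ndrg1, Aldoa and Ldha were called against tumour-bearing spleens in all 18 alternatives. Pkm lost that call in 10 of the 18, among them upper-quartile scaling (adjusted p 0.0906), library totals only (0.0729) and no filter on low counts (0.0526). Between the spleens, the count of members higher went from 1 to 0 with DESeq2 size factors in edgeR (Ldha, adjusted p 0.0516), with no filter (0.0534), and with only both groups in the fit (0.101). It ranged from 0 to 0 when single libraries were left out, and was 2 with the split of the spleen libraries as a block, where Tpi1 was called too (adjusted p 0.0416).

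With the replicate number as a block, 7 members were higher than in tumour-bearing spleens (Bnip3 was called, adjusted p 0.0493), 6 higher than in healthy spleens (Pkm was not, adjusted p 0.0558), and 0 between the spleens (Ldha, adjusted p 0.0871). Same-numbered libraries of tumours and tumour-bearing spleens deviated together with r from −0.0471 to 0.288 (2 of 4 over 0.1). Of the 4 tumour libraries, 2 correlated best with their own number. These values cannot settle whether the numbers are pairs, and the main fit did not take them as pairs. Over all genes the fit with the block gave 1499 higher and 1321 lower against tumour-bearing spleens, beside 1333 and 1176 in a fit of the same libraries without it. Against healthy spleens it gave 862 and 605. That fit also lacks tumour replicate 4, which has no healthy spleen of its number, and a fit of both groups with no block gave 1266 and 1208, so the part of the block alone was not tested.

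Scaling moved the balance of calls over all genes. Against tumour-bearing spleens it went from 1338 higher and 1115 lower to 1091 and 1530 with upper-quartile scaling and to 1027 and 1696 with library totals only, where the median of all genes shifted by −0.12. Against healthy spleens it went to 1154 and 1569, and to 979 and 2002, with shifts of −0.10 and −0.20. Between the spleens 104 were higher and 30 lower, 91 and 47 with library totals, and 443 and 248 with the split as a block. With tumour-bearing spleen replicates 1 and 2 alone as controls, 949 genes were higher and 546 lower in tumour NK, and with replicates 3 and 4 alone 1477 and 1337. With replicates 3 and 4, 5 oxygen sensing genes were higher in place of 3. The lists' counts of lower genes, 0 to 2, moved by 1 or 2 under several settings. Counts of 2 to 12 limit Pgk1 and the spleen levels of Ankrd37.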

Other observations

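Gapdh, the glycolytic enzyme between Tpi1 and Pgk1 in the pathway, had 815 counts in healthy spleen replicate 2, 985 in tumour-bearing spleen replicate 3 and 603 in sCAF replicate 1, and between 1 and 30 counts in each of the other 11 libraries. The libraries with high counts belong to 3 different groups. The GENCODE M21 annotation holds 120 near-identical copies of its 3′ end, by the measure used for the members.

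Summed over the 6 glycolytic members, libraries held 1314, 1651 and 1632 CPM in healthy spleens, 1633, 1648, 1984 and 2187 CPM in tumour-bearing spleens, 2203, 2713, 2867 and 2620 CPM in tumours, and 5621, 5672 and 6083 CPM in sCAFs.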
